A study of Sus scrofa domesticus with 34 samples.

Results

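The vitamin D receptor (VDR) target genes described here are CDKN1A, SPP1, THBD, TXNIP, IGFBP3 and CD14, chosen by name as genes that answer to vitamin D outside the kidney. Of these 6 genes, 4 were found by the Ensembl identifier of their symbol among the 31907 genes of the count files: CDKN1A (ENSSSCG00000001565), SPP1 (ENSSSCG00000009216), TXNIP (ENSSSCG00000031262) and CD14 (ENSSSCG00000014369). The identifier of THBD in the name table is not among those of the count files, and the name table pairs IGFBP3 with no identifier, so both were not analysed here. All 4 measured genes were above 1 CPM, a gene's counts scaled to a fixed library total, in all 34 libraries and passed the filter on low counts.

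The libraries came from domestic pigs (Sus scrofa domesticus), females and castrated males, and each was labelled as muscle. The feeds differed in how much vitamin D they held and in which form, either cholecalciferol (vitamin D3) or calcidiol, written 25(OH)D, into which the liver turns it. Doses below are IU per kg of feed, first for growing and then for finishing animals. Control pigs ate the standard cholecalciferol diet, with 2000 and 1500 IU of that form (n = 8, of which 4 female). Pigs on increased cholecalciferol received 3000 and 2500 IU (n = 10, of which 6 female). The combination was the standard diet with a further 1000 IU of 25(OH)D at either age (n = 8, of which 4 female). Pigs on 25(OH)D received that form alone, at 2000 and 1500 IU (n = 8, of which 4 female). All 4 diets carried added vitamin D.

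VDR is a nuclear receptor that is activated by the hormone form of vitamin D, which cells and the kidney make from 25(OH)D. It binds DNA together with a retinoid X receptor and raises or lowers transcription of its target genes. The targets differ by cell type: CYP24A1, which breaks the hormone down, responds in nearly every tissue, while the genes described here were mostly studied in cultured tumour cells, bone cells and monocytes. CDKN1A encodes the cell cycle inhibitor p21, TXNIP a thioredoxin-binding protein that limits glucose uptake, SPP1 the secreted matrix protein osteopontin, and CD14 a co-receptor for bacterial lipopolysaccharide on myeloid cells. THBD (thrombomodulin) and IGFBP3 (a carrier of insulin-like growth factors) are the pair without values.

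Gene counts summed to 1.34 to 30.4 M (mega) per library, with a median of 6.67 M. The deposited files are numbered, and depth followed those numbers: files 1 to 24 held 4.08 to 13.2 M, files 25 to 29 held 16.8 to 30.4 M, and files 30 to 34 held 1.34 to 2.69 M. The last run holds 4 of the 8 combination libraries and 1 of the 8 25(OH)D libraries. The muscle label was checked against a list of 15 muscle genes, 8 of them in the files. They summed to 1046 to 7388 CPM, with ACTA1 at 1635 ± 912 CPM (SD, n = 34). Of 10 neuron genes, 9 were in the files and none was at 0 in any library. They summed to 4653 to 9279 CPM, with SNAP25, a synaptic vesicle fusion protein, at 1395 ± 511 CPM (SD, n = 34). The myelin gene MBP stood at 3404 ± 1685 CPM (SD, n = 34). The label therefore does not cover what the libraries hold, and 2 further lists, of cerebellar and of forebrain genes, were used to describe them. The mean log2 CPM of the cerebellar list minus that of the forebrain list, called the regional difference below, ran from 0.29 to 7.12 between libraries. In such mixed tissue, fewer cells of a type and less RNA per cell cannot be told apart.

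The 3′ kit used here yields 1 fragment per transcript, so CPM does not scale with transcript length and levels can be set side by side between genes. TXNIP had the highest level, at 114 ± 68.0 CPM, then SPP1 at 46.7 ± 29.2 CPM, CDKN1A at 25.1 ± 11.1 CPM and CD14 at 4.52 ± 1.85 CPM (SD, n = 34 for each). VDR itself stood at 3.02 ± 1.54 CPM (SD, n = 34), below 1 CPM in 2 libraries. The coefficient of variation over all libraries was 62.5% for SPP1, 59.4% for TXNIP, 44.2% for CDKN1A and 40.9% for CD14. Counts behind these values ran from 123 to 2860 for TXNIP, 54 to 1437 for SPP1, 35 to 988 for CDKN1A, 4 to 148 for CD14 and 2 to 157 for VDR, so the last pair carried the widest counting error.

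**Figure D1:**
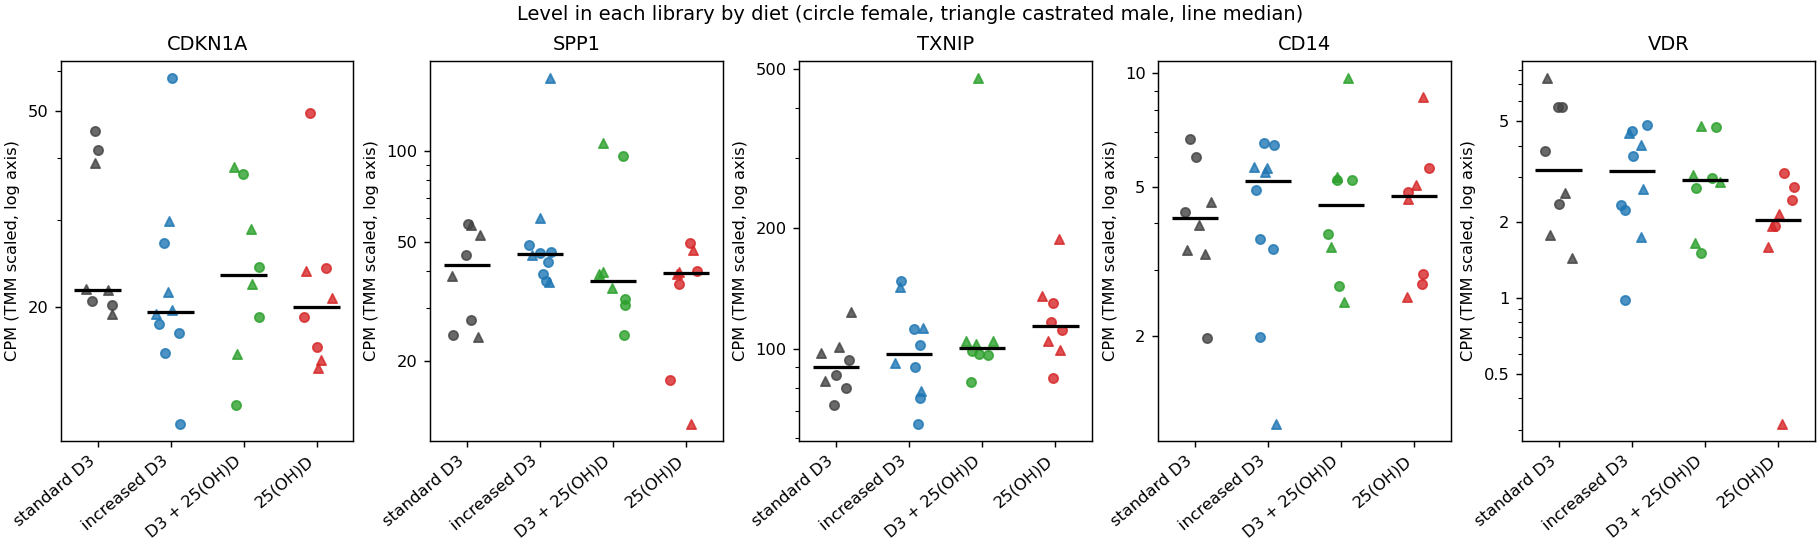
Level of the 4 measured target genes and of VDR in each library, by diet, in CPM on a log axis (TMM-scaled library sizes; D3 is cholecalciferol). Circles are females, triangles are castrated males and lines are medians; the 4 diets overlap for every gene, and single libraries stand far above their group, such as the combination library at 473 CPM of TXNIP.

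No difference of the 4 target genes between diets passed the test. All 6 pairs of diets were compared with edgeR's quasi-likelihood test over 13974 genes, with sex in the model and Benjamini-Hochberg adjustment at 0.05. In each of the 6 comparisons 0 of 4 target genes passed and 0% of all genes tested did, and DESeq2 and limma-voom also called 0 genes in each. At an unadjusted p under 0.05, increased against standard cholecalciferol held 0 of 4 target genes against 7.77% of all genes. Combination against standard cholecalciferol held 1 of 4 (TXNIP) against 4.34%, and 25(OH)D against standard cholecalciferol 0 of 4 against 3.23%. Combination against increased cholecalciferol held 0 of 4 against 4.14%, 25(OH)D against increased cholecalciferol 1 of 4 (SPP1) against 12%, and 25(OH)D against the combination 0 of 4 against 7.57%. The diets share libraries between these comparisons, so the comparisons are not independent of each other. The labels pair no animals between diets.

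CDKN1A, the p21 gene, binds and blocks cyclin-dependent kinases and is a standard reporter of VDR action in dividing cells. Its level ran from 19.4 CPM through a median of 21.7 CPM to 45.5 CPM in the standard cholecalciferol group, and from 11.6 CPM through 19.6 CPM to 58.1 CPM in the increased cholecalciferol group. In the combination group the lowest, median and highest values were 12.7, 23.2 and 38.5 CPM, and in the 25(OH)D group 15.1, 20.0 and 49.4 CPM. The medians were close, some libraries stood well above them in each diet, and the ranges overlapped throughout. With standard cholecalciferol these were at 39.2, 41.7 and 45.5 CPM, and in the combination group at 37.2 and 38.5 CPM. The means were 28.7 ± 11.2 CPM for standard cholecalciferol, 24.8 ± 9.39 CPM for the combination (SD, n = 8 each), 24.0 ± 13.1 CPM for increased cholecalciferol (SD, n = 10) and 23.1 ± 11.2 CPM for 25(OH)D (SD, n = 8). No neighbours in that order differed beyond their spread.

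The CDKN1A difference with the matched dose of the other molecule, 25(OH)D minus standard cholecalciferol, was -0.33 on the log2 scale (SE 0.28, 95% interval -0.90 to 0.24, adjusted p = 1.00 by edgeR's quasi-likelihood test). It was -0.57 (unadjusted p = 0.0462 by edgeR) without 25(OH)D replicate 2, the library at 49.4 CPM. Increased minus standard cholecalciferol gave -0.27 (SE 0.26, 95% interval -0.80 to 0.26, adjusted p = 0.793), and -0.51 (unadjusted p = 0.0434) without increased cholecalciferol replicate 1, at 58.1 CPM. The libraries left out had regional differences of 5.90 and 6.42, among the highest. With the regional difference as a covariate the CDKN1A values were -0.14 for 25(OH)D and -0.11 for increased cholecalciferol against standard cholecalciferol (unadjusted p = 0.402 and 0.481 by edgeR). In the same comparisons the cerebellar list had 0 of 10 genes above 0 and medians of -0.46, with none of its genes past the adjusted threshold. It had 10 of 10 above 0 in the combination minus increased cholecalciferol (median 0.53) and 0 of 10 in 25(OH)D minus the combination (median -0.59). In the combination minus standard and 25(OH)D minus increased cholecalciferol it had 6 of 10 (medians 0.16 and 0.10). The list was thus uneven across diets, and its part in the diet differences was not tested. The remaining 4 diet differences of CDKN1A lay between -0.21 and 0.07.

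TXNIP, whose product holds back thioredoxin and pulls glucose transporters from the cell surface, ran from 72.6 CPM through a median of 90.0 CPM to 124 CPM with standard cholecalciferol. The increased cholecalciferol group spanned 65.2 to 148 CPM around a median of 97.3 CPM, and the 25(OH)D group 84.5 to 189 CPM around 114 CPM. In the combination group 7 of 8 libraries lay between 82.8 and 105 CPM and 1, replicate 3, stood at 473 CPM. The combination mean, 145 ± 133 CPM (SD, n = 8), followed that library. The other means were 121 ± 31.7 CPM for 25(OH)D (SD, n = 8), 102 ± 27.5 CPM for increased cholecalciferol (SD, n = 10) and 92.3 ± 15.9 CPM for standard cholecalciferol (SD, n = 8). No neighbours in this order differed beyond their spread.

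Combination minus standard cholecalciferol was 0.60 for TXNIP (SE 0.24, 95% interval 0.11 to 1.10, unadjusted p = 0.0179, adjusted p = 0.999 by edgeR). Without combination replicate 3 the difference was 0.11 (unadjusted p = 0.469), and within files 1 to 24, which keep that library, it was 1.06. The same library was the highest of all 34 for the gene lists of fibroblasts (mean log2 CPM 5.61, median over libraries 3.23), pericytes and smooth muscle (4.88, median 2.97), endothelium (4.06, median 3.46) and microglia and macrophages (4.45, median 3.69). It also held 129 CPM of CPA1, a digestive enzyme of the pancreas, against at most 11.4 CPM in the others. Over the groups the fibroblast list summed to 74.2 to 737 CPM with the combination and 84.7 to 160 CPM with standard cholecalciferol, and the pericyte list to 75.0 to 465.5 CPM and 62.2 to 167 CPM. Of the 9 tested fibroblast genes 8 were above 0 in this comparison, with a median of 0.74 and 5 at an unadjusted p under 0.05. All 8 skeletal muscle genes were above 0, with a median of 0.75 and 7 at an unadjusted p under 0.05, and 0 genes of either list passed the adjusted threshold by edgeR. The part of these cells in the TXNIP value was not tested. 25(OH)D minus standard cholecalciferol, the comparison of the molecules at matched dose, was 0.40 (SE 0.24, 95% interval -0.09 to 0.89, unadjusted p = 0.106, adjusted p = 1.00 by edgeR). Fitted on the libraries of these diets alone, in place of all 34, it was 0.42 (unadjusted p = 0.0091, adjusted p = 0.9998 by edgeR).

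SPP1, which encodes osteopontin, a secreted ligand of integrins and CD44 made by bone cells, macrophages and some glia, ran from 24.2 CPM through 41.8 CPM to 57.4 CPM with standard cholecalciferol. With increased cholecalciferol 9 of 10 libraries lay between 36.8 and 59.8 CPM around a group median of 45.6 CPM, and replicate 8 stood at 175 CPM. The combination group spanned 24.5 to 106 CPM around a median of 37.0 CPM, and the 25(OH)D group 12.4 to 49.4 CPM around 39.3 CPM. All 8 libraries of the 25(OH)D group were therefore below the highest libraries of the other diets, while the medians of the 4 diets lay between 37.0 and 45.6 CPM. In order, the means were 57.7 ± 41.8 CPM for increased cholecalciferol (SD, n = 10), 50.5 ± 31.9 CPM for the combination, 40.8 ± 14.2 CPM for standard cholecalciferol and 35.1 ± 13.3 CPM for 25(OH)D (SD, n = 8 each), with no neighbours apart beyond their spread.

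For SPP1 the difference with the smallest p, 25(OH)D minus increased cholecalciferol, was -0.72 (SE 0.31, 95% interval -1.35 to -0.09, unadjusted p = 0.0262, adjusted p = 0.366 by edgeR). Both dose and molecule differ between these diets. It was -0.38 (unadjusted p = 0.170) without increased cholecalciferol replicate 8, and -0.90 within files 1 to 24. That replicate had the highest mean log2 CPM of the astrocyte list (7.54, median 7.14) and the lowest of the neuron list (8.43, median 8.98), whose part in the value was not tested. At the matched dose, 25(OH)D minus standard cholecalciferol was -0.22 (SE 0.32, 95% interval -0.87 to 0.43, adjusted p = 1.00), and -0.070 without 25(OH)D replicate 3. Adding either molecule to the standard diet gave 0.50 for cholecalciferol (SE 0.30, 95% interval -0.12 to 1.11) and 0.32 for 25(OH)D (SE 0.32, 95% interval -0.33 to 0.97). The first was 0.15 without increased cholecalciferol replicate 8, and the second 0.037 without combination replicate 2 and 0.74 without files 30 to 34. 25(OH)D minus the combination was -0.54 (SE 0.33, 95% interval -1.20 to 0.12, unadjusted p = 0.108 by edgeR). It was -0.25 (unadjusted p = 0.447) without combination replicate 2 and -1.06 (unadjusted p = 0.00935) without files 30 to 34. Within files 1 to 24, which keep 3 of the 8 combination libraries, it was -1.27 (unadjusted p = 0.00337, adjusted p = 0.220 by edgeR).

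CD14, the lipopolysaccharide co-receptor of monocytes and macrophages and a gene that vitamin D raises when monocytes mature, was the least abundant of the 4. Its lowest, median and highest levels were 1.97, 4.12 and 6.68 CPM with standard cholecalciferol, and 1.17, 5.19 and 6.53 CPM with increased cholecalciferol. They were 2.47, 4.47 and 9.71 CPM in the combination group and 2.54, 4.73 and 8.63 CPM in the 25(OH)D group. The group means of 4.73 ± 2.31 CPM for the combination, 4.62 ± 2.00 CPM for 25(OH)D, 4.27 ± 1.51 CPM for standard cholecalciferol (SD, n = 8 each) and 4.48 ± 1.85 CPM for increased cholecalciferol (SD, n = 10) did not differ beyond their spread. Differences of CD14 between diets lay between -0.03 and 0.17, with SEs of 0.30 to 0.33. At the matched dose the difference was 0.13 for 25(OH)D minus standard cholecalciferol (SE 0.32, 95% interval -0.51 to 0.78, adjusted p = 1.00 by edgeR), which leaves room for a change of more than 1.5-fold.

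**Figure D2:**
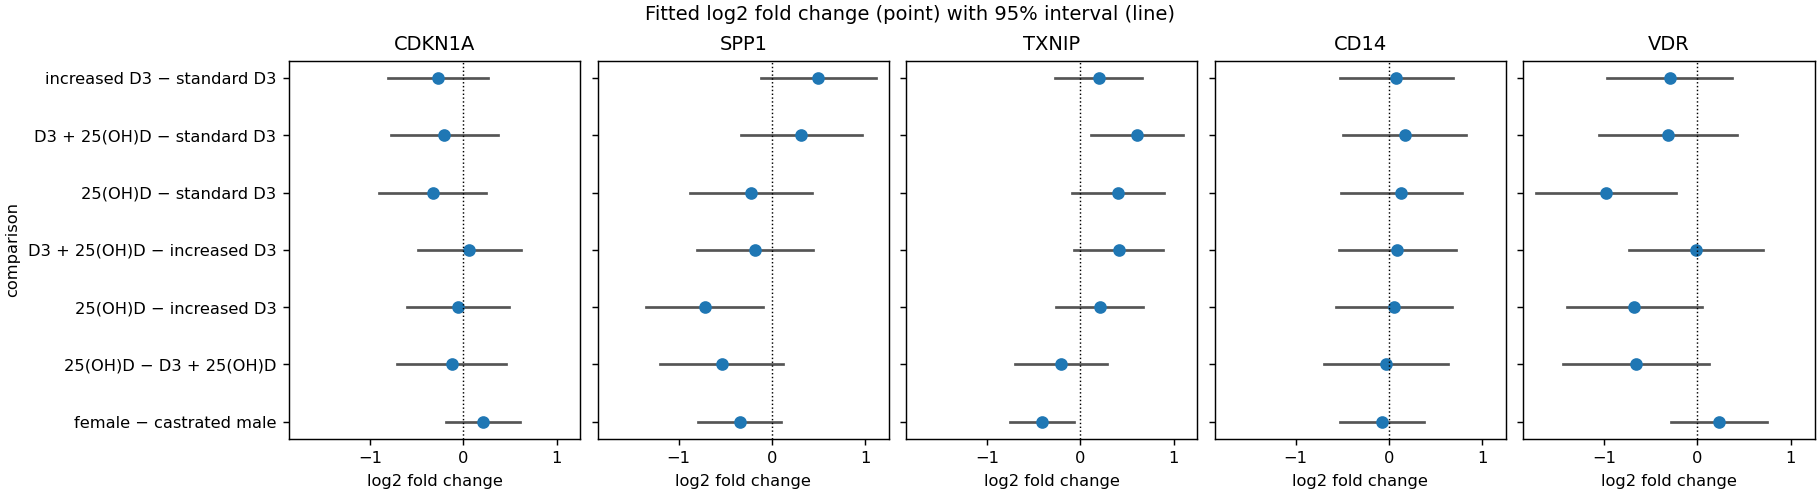
Fitted log2 fold change of each target gene and of VDR in the 6 diet comparisons and between the sexes, with 95% intervals from edgeR's quasi-likelihood fit (D3 is cholecalciferol). Of the target genes, the interval leaves out 0 for TXNIP in the combination against standard cholecalciferol and between the sexes, and for SPP1 in 25(OH)D against increased cholecalciferol, before adjustment over all genes.

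VDR, the receptor, showed the same lack of calls. It ran from 1.44 CPM through 3.21 CPM to 7.39 CPM with standard cholecalciferol, from 0.976 through 3.18 to 4.84 CPM with increased cholecalciferol, from 1.5 through 2.93 to 4.77 CPM in the combination group and from 0.318 through 2.04 to 3.13 CPM in the 25(OH)D group. No 25(OH)D library exceeded 3.13 CPM, whereas the standard cholecalciferol libraries reached above and below it. 25(OH)D minus standard cholecalciferol was -0.98 for VDR (SE 0.37, 95% interval -1.73 to -0.23, unadjusted p = 0.0122, adjusted p = 1.00 by edgeR). It was -0.65 (unadjusted p = 0.147) within files 1 to 24, where 5 of 8 standard cholecalciferol libraries remain, and -0.70 (unadjusted p = 0.0654) without standard cholecalciferol replicate 8.

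Between the sexes, females minus castrated males, edgeR called 11 of 13974 genes, all lower in females, which is 0.0787% of all genes, and 0 of 4 target genes. At an unadjusted p under 0.05 TXNIP was the 1 of 4 target genes, against 6.58% of all genes. It ran from 65.2 through 95.1 to 148 CPM in 18 females and from 78.5 through 105 to 473 CPM in 16 castrated males. The difference was -0.41 (SE 0.17, 95% interval -0.75 to -0.07, unadjusted p = 0.0197, adjusted p = 0.689 by edgeR), and -0.21 (unadjusted p = 0.0536) without combination replicate 3. Of the 9 tested pericyte and smooth muscle genes 1 was above 0 between the sexes, with a median of -0.59 and 4 at an unadjusted p under 0.05, and their part in the TXNIP value was not tested. SPP1 was at -0.35 (SE 0.22), at -0.12 without increased cholecalciferol replicate 8 and at -0.49 (unadjusted p = 0.0272 by edgeR) without combination replicate 2. Beside it, 0 of 8 tested oligodendrocyte genes were above 0, with a median of -0.40 and 3 at an unadjusted p under 0.05, and their part was not tested. CDKN1A was at 0.21 (SE 0.20), at 0.085 without increased cholecalciferol replicate 1 and at 0.012 with the regional difference as a covariate. CD14 was at -0.08 (SE 0.22).

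Against the level of VDR, CDKN1A was higher in libraries with more VDR. Across 34 libraries Spearman's rho of log2 CPM was 0.557 (permutation test, p = 0.00075, adjusted p = 0.003 over 4 relations) and Pearson's r was 0.532 (p = 0.00122, adjusted p = 0.00488 by permutation). Leaving out the 2 libraries farthest from the median of VDR, 25(OH)D replicate 1 and standard cholecalciferol replicate 8, gave an r of 0.480. Of the 13972 other genes, 0.852% were related to VDR at least as strongly by rho. Within files 1 to 24 rho was 0.541 (n = 24, adjusted p = 0.0283, permutation test), and on residuals after diet and sex it was 0.544. The other runs of files hold 5 libraries each, too few for a value of their own.

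The level of CDKN1A was also compared with the regional difference. Of the 34 libraries, 19 had a regional difference of 0.29 to 1.54 and 15 of 2.28 to 7.12. This split at 2 was chosen after seeing the data, and the adjusted p-values given below for either set do not cover that choice. All 5 libraries of files 30 to 34, at 2.84 to 4.17, are among the 15, and 4 of them are combination libraries. The sets therefore also differ in file run, depth and diet. Among the 15, CDKN1A rose with the difference (rho 0.857, adjusted p = 0.0007, r 0.847, adjusted p = 0.0011, permutation test over 10 relations), and among the 19 it did not pass the threshold (rho -0.193, adjusted p = 0.553, r 0.101, adjusted p = 0.691, permutation test). VDR did not pass it in either set, with a rho of 0.493 among the 15 (adjusted p = 0.171) and -0.523 among the 19 (adjusted p = 0.116, permutation test). Over all 34 libraries CDKN1A rose with the regional difference (rho 0.609, adjusted p = 0.00352, r 0.823, adjusted p = 2e-04, permutation test over 80 relations). By rho 14.8% of other genes were related to it at least as strongly. Within files 1 to 24 the CDKN1A relation was rho 0.393 (adjusted p = 0.214) and r 0.810 (adjusted p = 0.002, permutation test). VDR over all 34 libraries had a rho of 0.288 (adjusted p = 0.170) and an r of 0.380 (adjusted p = 0.0666, permutation test).

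On residuals after the regional difference, the relation of CDKN1A to VDR was rho 0.312 (adjusted p = 0.146, permutation test) and r 0.418 (adjusted p = 0.0509). It was rho 0.650 in the 15 libraries above the split (adjusted p = 0.0427) and 0.168 in the 19 below it (adjusted p = 0.747, permutation test). The 4 libraries with the highest CDKN1A, at 41.7 to 58.1 CPM, had regional differences between 5.90 and 7.12. The difference between the 2 sets of libraries was not tested.

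TXNIP was lower in libraries with more VDR by rank. Its rho was -0.430 (permutation test, p = 0.0122, adjusted p = 0.0244), while r was -0.305 (adjusted p = 0.156) and -0.387 without the same 2 libraries. Of all other genes, 7.09% were related to VDR at least as strongly. The call depended on the scaling: with CPM on total counts, in place of TMM-scaled library sizes, rho was -0.150 (adjusted p = 0.784, permutation test). It was -0.212 on residuals after diet and sex (adjusted p = 0.303) and -0.412 within files 1 to 24 (n = 24, adjusted p = 0.0951). It was also lost without standard cholecalciferol replicate 1 (rho -0.390, adjusted p = 0.05002), standard cholecalciferol replicate 6 (-0.382, 0.0571) or increased cholecalciferol replicate 7 (-0.383, 0.0587).

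SPP1 and CD14 showed no relation to VDR past the threshold. For SPP1 rho was -0.203 (adjusted p = 0.334) and r -0.0822 (adjusted p = 0.639, permutation test), and rho was 0.0400 within files 1 to 24. CD14 had a rho of -0.118 (adjusted p = 0.503) and an r of -0.0898 (adjusted p = 0.639, permutation test). Without the 2 libraries farthest from the median of VDR, r was -0.0390 for SPP1 and -0.232 for CD14. Of all other genes, 47.1% were related to VDR at least as strongly as SPP1 and 68.6% at least as strongly as CD14.

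**Figure D3:**
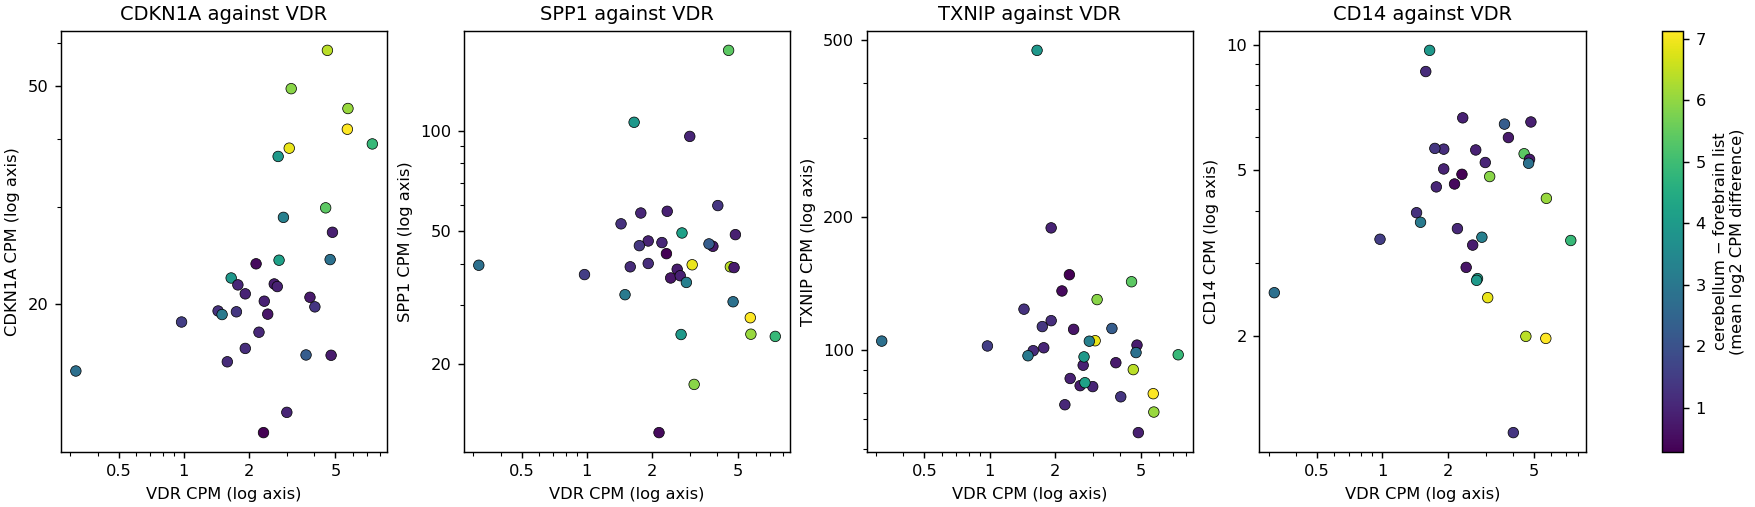
Level of each target gene against that of VDR in 34 libraries, both in CPM on log axes, coloured by the regional difference (mean log2 CPM of the cerebellar list minus the forebrain list). CDKN1A is higher where VDR is higher (rho 0.557), and its 4 highest libraries have regional differences of 5.90 to 7.12.

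Of the 6 pairs of target genes none passed the threshold: rho was -0.351 for CDKN1A with SPP1, -0.310 for CDKN1A with CD14 and 0.341 for SPP1 with CD14 (adjusted p = 0.146 each, permutation test, n = 34). Pearson's r for the same pairs was -0.353, -0.349 and 0.240 (adjusted p = 0.0863, 0.0863 and 0.205, permutation test). TXNIP with CD14 had a rho of 0.267 and an r of 0.415 (adjusted p = 0.190 and 0.0863, permutation test), and the r was 0.231 without 25(OH)D replicate 4 and combination replicate 3. The remaining pairs, TXNIP with CDKN1A and with SPP1, had rhos of -0.168 and 0.0472. Within files 1 to 24 no pair passed either, with rhos from -0.209 to 0.440.

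The cell type lists were compared with each gene over 80 relations, those of the 4 target genes and VDR with 14 marker lists, the regional difference and depth, with permutation p adjusted over the 80. Relations are named below where they passed by rho, with some of those that passed by r alone. SPP1 rose with the list of oligodendrocytes, the myelin-forming cells of the brain (rho 0.649, adjusted p = 0.0016, r 0.643, adjusted p = 2e-04). Without the 2 libraries farthest from the median of that list r was 0.658, and within files 1 to 24 rho was 0.697 (adjusted p = 0.0232, permutation test). SPP1 also rose with microglia and macrophages (rho 0.556, adjusted p = 0.0073, r 0.446) and by rank with endothelium (rho 0.470, adjusted p = 0.0258, r 0.389, adjusted p = 0.0651), at rhos of 0.517 and 0.511 within files 1 to 24 (adjusted p = 0.0972 each, permutation test). With the neuron list SPP1 fell by r alone (r -0.544, adjusted p = 0.0056, rho -0.403, adjusted p = 0.0566, permutation test).

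CD14 rose most with endothelium (rho 0.683, adjusted p = 0.0016, r 0.626) and with microglia and macrophages (rho 0.653, adjusted p = 0.0016, r 0.612). Microglia are the resident macrophages of the brain. Without the 2 libraries farthest from the median of each list r was 0.595 and 0.528, and within files 1 to 24 rho was 0.640 and 0.644 (adjusted p = 0.0256 each, permutation test). CD14 also rose with pericytes and smooth muscle (rho 0.515, adjusted p = 0.0162, r 0.553) and astrocytes (rho 0.509, adjusted p = 0.0167, r 0.491), and fell with the cerebellar list (rho -0.470, adjusted p = 0.0258, r -0.454). Those last 3 did not pass by rho within files 1 to 24 (0.506, 0.448 and -0.348).

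CDKN1A fell with the lists of forebrain (rho -0.648, adjusted p = 0.0022, r -0.799), endothelium (rho -0.577, adjusted p = 0.00549, r -0.628), microglia and macrophages (rho -0.522, adjusted p = 0.0146, r -0.628), oligodendrocytes (rho -0.473, adjusted p = 0.0258, r -0.605) and astrocytes (rho -0.454, adjusted p = 0.0315, r -0.549). It rose with the cerebellar list (rho 0.595, adjusted p = 0.0048, r 0.787) and the choroid plexus and ependyma list (rho 0.519, adjusted p = 0.0146, r 0.492). Within files 1 to 24 none of these 7 passed by rho (-0.526 for forebrain, adjusted p = 0.0972, permutation test), and 6 of 7 passed by r, the choroid plexus list being the exception (r 0.391, adjusted p = 0.137).

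TXNIP rose with pericytes and smooth muscle (rho 0.496, adjusted p = 0.0188, r 0.748, adjusted p = 0.00048) and with microglia and macrophages (rho 0.487, adjusted p = 0.0220, r 0.474, permutation test). The first r was 0.462 without increased cholecalciferol replicate 8 and combination replicate 3, and within files 1 to 24 the rhos were 0.558 and 0.518 (adjusted p = 0.0972 each). By r alone TXNIP rose with fibroblasts (r 0.731, adjusted p = 0.00429, rho 0.348, adjusted p = 0.100, permutation test). That r was 0.26 without increased cholecalciferol replicate 6 and combination replicate 3. It fell with neurons by r alone (r -0.516, adjusted p = 0.0107, rho -0.425, adjusted p = 0.0508, permutation test). VDR fell with microglia and macrophages by rank (rho -0.462, adjusted p = 0.0287, r -0.300, adjusted p = 0.153, permutation test), at -0.438 within files 1 to 24. No target gene was related to the skeletal muscle list past the threshold, with rhos of -0.135 for CDKN1A, 0.0487 for SPP1, 0.111 for TXNIP and 0.00382 for CD14, nor to depth over all libraries, with rhos of -0.136 to 0.188. Within files 1 to 24 CDKN1A was related to depth by r (0.609, adjusted p = 0.0132, permutation test) and not past the threshold by rho (0.460, adjusted p = 0.166), and the part of depth in the other relations of CDKN1A was not tested.

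**Figure D4:**
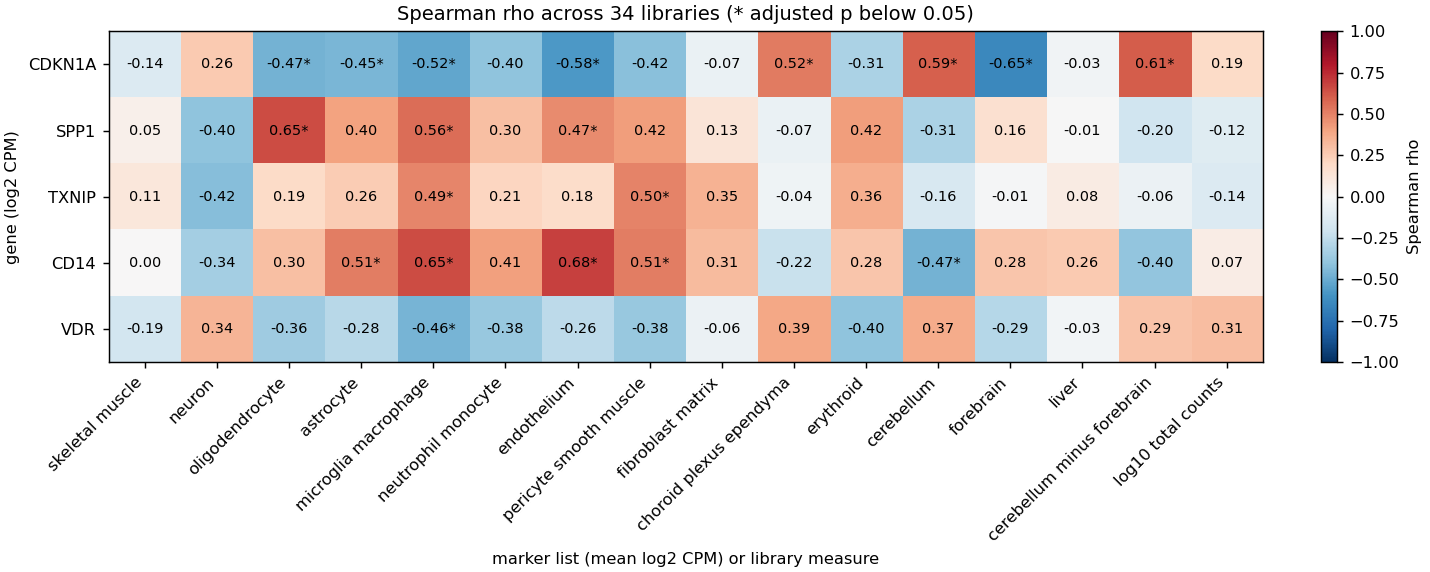
Spearman's rho across 34 libraries between log2 CPM of each target gene or VDR (rows) and the mean log2 CPM of each marker list, the regional difference or log10 total counts (columns). Stars mark an adjusted p below 0.05 (permutation test, 80 relations); SPP1 is most related to oligodendrocytes (0.65), CD14 to endothelium (0.68) and CDKN1A to the forebrain list (-0.65).

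The genes most like each target gene, among 11133 others with a symbol, were named by the highest rho across the same 34 libraries, as a description. For CDKN1A they were EOMES (rho 0.810, mean 7.81 CPM), PPP2R1B (0.799), GNB1L (0.794), APMAP (0.789) and BEX5 (0.786). EOMES is a T-box transcription factor. For SPP1 they were HS3ST5 (0.812), GAB1 (0.809), FA2H (0.805), GPRC5B (0.790) and NDRG1 (0.772). FA2H makes hydroxylated fatty acids of myelin lipids. The genes closest to CD14 were SRI (0.780), the complement gene C1QC (0.767), EPAS1 (0.755), RNASE4 (0.753) and FCER1G (0.736), an immunoglobulin receptor subunit. TXNIP had weaker neighbours: SLC6A20 (0.654), ANXA2 (0.642), SLC47A1 (0.637), OMD (0.636) and PRELP (0.630), the last pair being matrix proteins. VDR was closest to SLC41A3 (0.713), GTPBP1 (0.698), MAPK14 (0.697), UST (0.697) and KRBA1 (0.694).

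Of the other genes that make, carry, sense or break down vitamin D, all 12 listed were in the files and 8 passed the filter. CYP24A1, the most responsive VDR target in most tissues, had a mean of 0.180 CPM and CYP27B1, which makes the hormone, 0.0564 CPM, and both were below 1 CPM in all 34 libraries. The receptor partners RXRB, RXRA and RXRG were at 28.7, 14.8 and 5.11 CPM. The 25-hydroxylases CYP27A1 and CYP2R1 stood at 11.4 and 5.09 CPM. None of the 8 passed the adjusted threshold in any diet comparison, where 0% of all genes tested did. In the diet comparisons the smallest unadjusted p of this list, after that of VDR, was for RXRB in the combination minus increased cholecalciferol, at -0.47 (SE 0.18, p = 0.0135, adjusted p = 0.931 by edgeR).

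A longer list of 34 VDR targets known from other cells had 28 genes in the files, of which 21 passed the filter. Of these, 0 were called in any comparison, where all genes gave 0% between diets and 0.0787% between the sexes. The median log2 difference of the list was 0.09 for increased against standard cholecalciferol, where that of all genes was 0.01. It was 0.10 for the combination against standard cholecalciferol (all genes 0.00) and -0.12 for 25(OH)D against standard cholecalciferol (all genes -0.01). At an unadjusted p under 0.05 there were 4, 2 and 2 of 21 in these comparisons, where all genes gave 7.77%, 4.34% and 3.23%. There were 0, 4 and 2 of 21 in combination against increased cholecalciferol, 25(OH)D against increased cholecalciferol and 25(OH)D against the combination, where all genes gave 4.14%, 12% and 7.57%. CEBPB, a transcription factor of myeloid cells, stood at -1.12 in 25(OH)D minus increased cholecalciferol (SE 0.40, unadjusted p = 0.00828, adjusted p = 0.307 by edgeR). KLF4, a monocyte differentiation factor, was at 1.03 in increased minus standard cholecalciferol (SE 0.38, unadjusted p = 0.0107, adjusted p = 0.623). S100G, the vitamin D-dependent calcium-binding protein of the gut, was at -3.04 in 25(OH)D minus standard cholecalciferol (SE 1.12, unadjusted p = 0.0103, adjusted p = 1.00), and was below 1 CPM in 21 libraries. Its mean was 2.67 ± 8.75 CPM (SD, n = 34) with the highest library at 51.5 CPM, whose part in the difference was not tested. The most abundant of this list was ATP2B1, a plasma membrane calcium pump, at 422 ± 81.6 CPM (SD, n = 34).

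The lists around each target gene held no call between diets either. As 0% of all genes tested were called in each diet comparison, these counts of 0 are no result about the lists. Genes named by smallest unadjusted p were picked over all comparisons, in which 3.23 to 12% of all genes fell under 0.05. Of 24 genes of cell cycle arrest and stress response around CDKN1A, 19 passed the filter and 0 were called in any diet comparison, and the highest levels were those of CCNG2 (76.5 CPM), CDKN1B (69.7 CPM) and SESN1 (54.7 CPM). CDKN1B encodes p27, the relative of p21. The list's smallest unadjusted p was for PLK3 in 25(OH)D minus increased cholecalciferol (-1.01, SE 0.39, p = 0.0136, adjusted p = 0.332 by edgeR).

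Of 15 genes of glucose and redox sensing around TXNIP, 11 passed and 0 were called. TXNRD1 and TXN2, of the thioredoxin system that TXNIP holds back, were at 61.0 and 60.9 CPM. DDIT4, a stress-responsive inhibitor of mTOR, was at 0.70 in the combination minus standard cholecalciferol (SE 0.25, unadjusted p = 0.00928, adjusted p = 0.999 by edgeR). ARRDC4, the arrestin-domain relative of TXNIP that responds to glucose, had a mean of 5.78 CPM.

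Among 17 receptors and relatives of osteopontin, 8 passed and 0 were called. Its integrin receptor subunits ITGAV, ITGB1 and ITGB5 were the most abundant, at 96.3, 41.1 and 35.2 CPM, and CD44 stood at 5.95 CPM, while the bone matrix relative MEPE was at 0 counts in all libraries. ITGA8 had the smallest unadjusted p, at 1.61 in 25(OH)D minus the combination (SE 0.61, p = 0.0120, adjusted p = 0.653 by edgeR), and was below 1 CPM in 9 libraries.

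Of 20 genes of lipopolysaccharide sensing around CD14, 14 passed and 0 were called. The CD14 partners TLR4 and LY96 stood at 1.66 and 2.35 CPM, below CD14 itself, and TLR2 at 4.80 CPM. HSP90B1, a chaperone that Toll-like receptors need to fold, was at 254 CPM and at -0.31 in 25(OH)D minus the combination (SE 0.11, unadjusted p = 0.00562, adjusted p = 0.653 by edgeR).

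Around the pair of targets without values, 18 genes of thrombin control were listed for THBD and 17 of the insulin-like growth factor system for IGFBP3, with 8 and 14 tested and 0 called in both. PLAT, the tissue plasminogen activator, was the most abundant tested gene of the first list at 30.9 CPM, and PLAU was at -1.26 in 25(OH)D minus increased cholecalciferol (SE 0.43, unadjusted p = 0.00583, adjusted p = 0.306 by edgeR). In the second, the insulin receptor substrate IRS2 stood at 246 CPM, and PAPPA, a protease that frees growth factors from their carriers, was at -1.07 in increased minus standard cholecalciferol (SE 0.44, unadjusted p = 0.0198, adjusted p = 0.623).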

How the data were processed

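QuantSeq 3′ forward libraries were made from RNA of tissue labelled muscle, per the labels' protocols. Each deposited file holds whole-number counts for every gene, which the authors had not normalized. The submitters' processing notes name FastQC, TopHat, HTSeq and DESeq2. The build, annotation, strand setting and tool versions were not given in the sources used here. Gene coordinates were not used. The 5 HTSeq summary lines of each file, such as reads outside features (16.4 to 29.9% of reads), were left out. No 2 files were identical. The series counts individuals per diet, so each library was taken as 1 pig.

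All 34 libraries entered 1 quasi-likelihood fit by edgeR 4.0.16 (R 4.3.3), with TMM scaling and terms for diet and sex. The expression filter, by diet, kept 13974 genes. Standard errors came from the F statistic, and 95% intervals from 36.0 degrees of freedom. CPM uses TMM-scaled library sizes, and correlations use log2 CPM with a prior count of 2 and 100000 permutations, two-sided. Adjustment covered 4 relations to VDR and 6 pairs, since THBD and IGFBP3 have no values. Alternatives were DESeq2 1.42.0, limma-voom (limma 3.58.1), other filters, models and sets of libraries. Named genes are the target genes and VDR, up to 3 genes per list by smallest p and by level, and the 5 most similar genes; LY96, TLR4, TLR2, CD44, ARRDC4, MEPE and the vitamin D genes RXRG, CYP2R1, CYP27A1, CYP24A1 and CYP27B1 were added for their role. The target genes and lists were chosen with earlier results of these data known. On counts simulated for the comparison of 25(OH)D with the standard diet, over 13653 genes, the test recovered 9.68% of planted 1.5-fold changes, 42.9% at 2-fold and 91.2% at 4-fold, with 9 false calls among 107.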

Additional observations from a re-analysis of the deposited data

Results flagged for a closer look

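Of 20 sets of values (4 target genes and VDR in 4 diets), 5 held a single library far above the rest of its diet. They were flagged by Dixon's gap-over-range test on CPM without a log scale. Its chance rate of about 1 in 20 holds for normally distributed values and independent sets. The TXNIP and CD14 flags fell on the same library, so the 5 cannot be set against that rate. CDKN1A stood at 49.4 CPM in 25(OH)D replicate 2, where the next library of that diet had 24.0 CPM. It stood at 58.1 CPM in increased cholecalciferol replicate 1, where the next had 30.0 CPM. SPP1 stood at 175 CPM in increased cholecalciferol replicate 8, with the next at 59.8 CPM. TXNIP at 473 CPM and CD14 at 9.71 CPM were both in combination replicate 3, with the next libraries at 105 and 5.31 CPM.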

How the results depend on the processing

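No paired analysis was possible because the labels carry no replicate numbers shared between diets. Relations of THBD and IGFBP3 to VDR were not run. Of the counts of genes called, 64 stayed within 1.5 times the reported count and 6 did not. Combination against increased cholecalciferol gave 1 with a term for file numbers, 1 without files 30 to 34 and 2 within files 1 to 24. 25(OH)D against the combination gave 2 without files 30 to 34 and 8 within files 1 to 24, and sex gave 18 with the term. Of the log2 differences of target genes, 279 kept their sign and 25 did not. No alternative gave an adjusted p under 0.220, that of SPP1 in 25(OH)D minus the combination within files 1 to 24 by edgeR. The cause of these changes was not tested.

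Signs changed as follows, with the range over single libraries left out where that changed them. For increased against standard cholecalciferol, CD14 was -0.015 within files 1 to 24 and ran from -0.023 to 0.21. For the combination against standard cholecalciferol, CDKN1A was 0.089 within files 1 to 24, and CD14 ran from -0.067 to 0.29. For 25(OH)D, CD14 ran from -0.038 to 0.26 against standard and from -0.12 to 0.15 against increased cholecalciferol, where CDKN1A ran from -0.32 to 0.18. For the combination against increased cholecalciferol, CDKN1A was -0.023 by limma-voom, -0.0011 without files 30 to 34 and -0.18 with the regional difference as a covariate, and ran from -0.093 to 0.29. SPP1 was 0.011 with the term for file numbers, 0.24 without files 30 to 34 and 0.37 within files 1 to 24, and ran from -0.47 to 0.17. TXNIP ran from -0.065 to 0.50 and CD14 from -0.15 to 0.20. For 25(OH)D against the combination, CDKN1A was 0.15 with the regional covariate and ran from -0.36 to 0.037, TXNIP ran from -0.29 to 0.30 and CD14 from -0.22 to 0.22. Between the sexes CD14 was 0.030 with the term for file numbers, 0.015 without files 30 to 34 and 0.041 within files 1 to 24, and ran from -0.16 to 0.017. Leaving out combination replicate 3 gave the changed sign of CD14 in each comparison with the combination and between the sexes, and of TXNIP against increased cholecalciferol and 25(OH)D.

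Of the relations to VDR, 28 values kept their direction and call, 8 lost the call and 4 changed sign. CDKN1A lost it at rho 0.312 after the regional difference and 0.168 in libraries with a regional difference below 2, and kept it over single libraries left out (0.522 to 0.638). TXNIP lost it at -0.150 with total counts, -0.212 after diet and sex, -0.412 within files 1 to 24, and -0.547 and -0.321 in libraries with a regional difference below and above 2, where fewer libraries remain. With single libraries left out it ran from -0.490 to -0.382. SPP1 was 0.0400 within files 1 to 24 and 0.109 below a regional difference of 2, and CD14 0.125 after the regional difference and 0.0790 below 2. Depth limits CD14 and VDR most, with as few as 4 and 2 counts in a library.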
